A study of Arabidopsis thaliana with 12 samples.

Results

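The effect of losing REF6 in plants that already lack normal BRM was measured by setting brm-1 ref6-1 seedlings against brm-1 seedlings of Arabidopsis thaliana. The comparison takes 6 of the 12 RNA-seq libraries of the study, the 3 of brm-1 ref6-1 and the 3 of brm-1, and covers every locus of the count table: 22076 of 29420 loci had enough counts to be tested. By their labels, both groups carry the brm-1 allele and differ by the ref6-1 allele. The other 6 libraries are wild type (WT) and ref6-1, 3 each, and give the same change of REF6 with BRM intact. They share no library with the comparison in brm-1. All plants were 14-day-old seedlings grown in long days, and whole seedlings were sequenced. The labels do not describe the alleles, and they state that RNA of biological replicates was pooled, so the p-values may measure only technical spread.

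REF6 is a histone demethylase that removes methyl groups from lysine 27 of histone H3, the mark that Polycomb proteins place on silenced genes. Its zinc fingers bind a short DNA sequence. BRM is the ATPase of a SWI/SNF complex, which uses ATP to move or evict nucleosomes. Both proteins are known as counterweights to Polycomb silencing in plants, and REF6 is known as a repressor of the flowering repressor FLC and as an activator in brassinosteroid and senescence pathways.

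The 6 libraries held 10119148 to 11768789 counts. The REF6 transcript had 1056, 998 and 932 counts in replicates 1, 2 and 3 of brm-1 and 820, 800 and 863 counts in brm-1 ref6-1, so it was present in every library, and the counts do not tell ref6-1 plants from others by absence of the transcript. Its log2 change was -0.19 (SE 0.05, edgeR adjusted p = 0.0403), a call that was lost in 7 of 13 alternatives, every one of the 6 left-out libraries included, with adjusted p from 0.0188 to 0.125. BRM was counted 43, 50 and 74 times in brm-1 and 60 and 35 times in brm-1 ref6-1 replicates 1 and 2. The library labelled brm-1 ref6-1 replicate 3 held 438 BRM counts, 14.7% of the WT mean in CPM (counts scaled to library size), against 1.25 to 2.61% in the other 5 libraries compared. That library therefore goes against its label in part. Of the 275 genes that fell at least 2-fold, 182 had their highest brm-1 ref6-1 value in replicate 3. For replicates 1 and 2 it was 46 and 47 genes, and the same count over all tested genes was not made. What the library labelled brm-1 ref6-1 replicate 3 contributed to the results was not tested beyond leaving it out. Root markers, markers of dividing cells and light-harvesting genes gave no calls in edgeR, DESeq2 or limma-voom (0 of 16, 0 of 8 and 0 of 18 tested, with 2, 2 and 0 at an unadjusted p under 0.05), and their summed levels overlapped between the groups. Those of floral organ identity and seed maturation genes did not overlap. Floral organ identity genes summed to 86.7 to 92.5 CPM in brm-1 and 121.6 to 132.7 CPM in brm-1 ref6-1. Seed maturation genes summed to 37.4 to 80.8 CPM in brm-1 and 84.1 to 167.3 CPM in brm-1 ref6-1. Whether the tissue make-up of the groups differed was not tested.

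Loss of REF6 in brm-1 changed 968 genes (4.38% of those tested), and most of them fell. At an edgeR adjusted p under 0.05, 721 genes were lower (3.27% of those tested) and 247 were higher (1.12%), so that 74.5% of the changed genes fell. The median log2 change over all genes tested was 0.01. Groups that did not overlap, whatever the test, were found for 13.3% of genes in the lower and 10.8% in the higher direction. A fall of at least 2-fold was seen for 275 genes and a rise of that size for 28. The genes that fell had a median level of 25.1 CPM in brm-1, 14.3 CPM in brm-1 ref6-1 and 26.1 CPM in WT. Those that rose were higher to begin with, at 55.3 CPM in brm-1 and 65.4 CPM in brm-1 ref6-1. Without the library labelled brm-1 ref6-1 replicate 3, 902 genes passed (669 lower and 233 higher), 710 of them among the 968. Leaving out brm-1 ref6-1 replicate 2 cut the count furthest, to 364, and without brm-1 replicates 1 and 3 and brm-1 ref6-1 replicate 1 it was 468, 458 and 480. In whole seedlings, fewer cells that express a gene and less RNA per cell cannot be told apart.

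Limited to named genes with non-overlapping groups and a mean level of 2 CPM or more, the 10 largest falls were those of XTH25, PAP23, BPC7, AOX1C, CYP71B18, CRK39, CRK20, NAC004, MYB61 and CRK15. XTH25, a xyloglucan-modifying enzyme of the cell wall, was counted 99, 29 and 94 times in brm-1 and 0, 1 and 8 times in brm-1 ref6-1. PAP23, a purple acid phosphatase, was counted 231, 118 and 93 times against 0, 4 and 18 times. BPC7, a basic pentacysteine transcription factor, was counted 77, 71 and 72 times against 3, 0 and 12 times. That the groups did not overlap was a condition for naming these genes. The highest brm-1 ref6-1 value was in replicate 3 each time. Their log2 changes were -4.50 (SE 0.79), -4.21 (SE 0.67) and -3.77 (SE 0.50), with edgeR adjusted p of 0.00914, 0.00739 and 0.0015. The call of XTH25 was lost without brm-1 ref6-1 replicate 2 (adjusted p = 0.052) and in limma-voom, over a range of 1.35e-06 to 0.0648 among its alternatives.

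CYP71B18, a locus of the cytochrome P450 family that the annotation gives as a transcribed pseudogene, was counted 350, 317 and 280 times in brm-1 and 6, 12 and 58 times in brm-1 ref6-1. NAC004, a NAC-domain transcription factor, was counted 175, 108 and 119 times against 5, 8 and 27 times. MYB61, a MYB transcription factor known from stomatal closure and seed-coat mucilage, was counted 115, 86 and 80 times against 9, 8 and 13 times. By the same condition the brm-1 ref6-1 libraries lay below the brm-1 libraries in all 3 genes. Replicate 3 was the highest brm-1 ref6-1 library in each. The log2 changes were -3.56 (SE 0.42), -3.24 (SE 0.37) and -3.13 (SE 0.35), with edgeR adjusted p of 0.00152, 0.000662 and 0.00047. AOX1C, an alternative oxidase of mitochondria, went from 61, 34 and 36 counts to 0, 0 and 9 (log2 change -3.73, SE 0.65, edgeR adjusted p = 0.00764). NYE2, a chlorophyll-breakdown protein, went from 237, 195 and 190 counts to 14, 9 and 50 (log2 change -3.01, SE 0.41, edgeR adjusted p = 0.003). Without the library labelled brm-1 ref6-1 replicate 3 the fitted falls were larger by more than 1.5-fold for PAP23 (-6.00), CYP71B18 (-5.01), NAC004 (-4.23) and NYE2 (-4.05), XTH25 and BPC7 then rested on 1 and 3 counts, and AOX1C was at 0 counts in both libraries left. In limma-voom the falls of PAP23, BPC7 and AOX1C came to -5.24, -4.61 and -4.93.

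**Figure D1:**
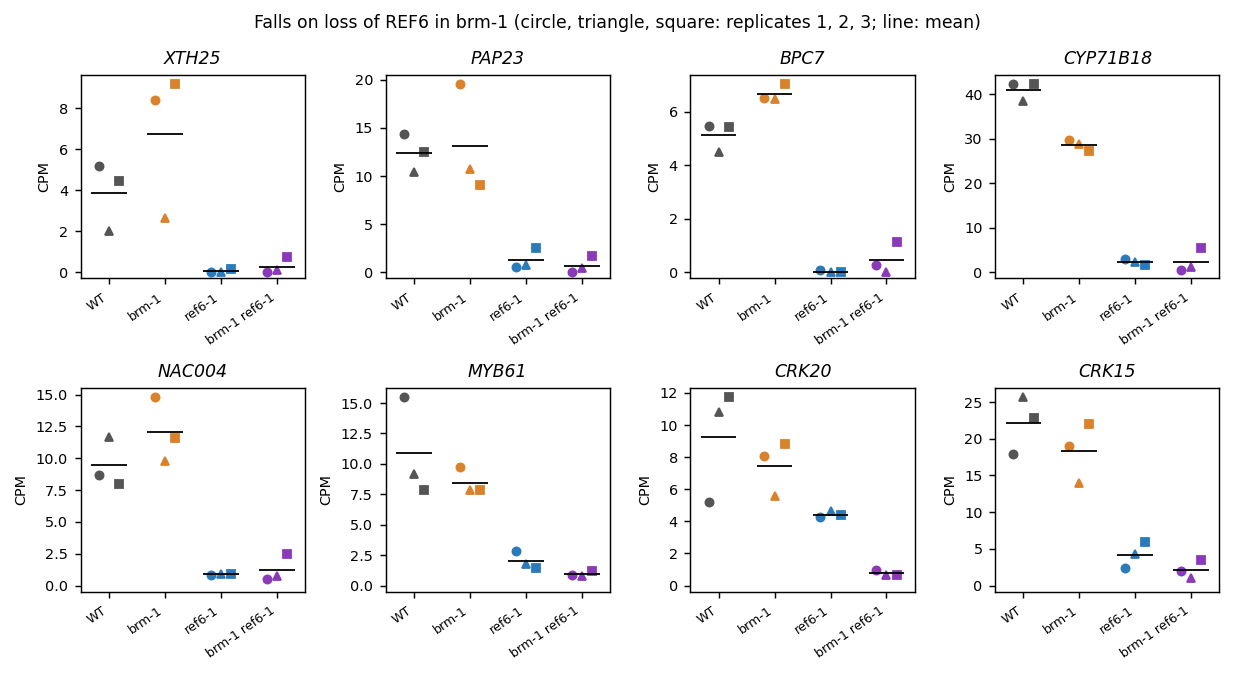
Level in CPM of 8 genes with large falls in each of the 12 libraries, by genotype; circles, triangles and squares are replicates 1, 2 and 3 and lines are means of 3 libraries. The 8 genes were chosen among falls without overlap, so every brm-1 ref6-1 library lies below every brm-1 library by choice. In CRK20 ref6-1 lies between the WT mean and brm-1 ref6-1.

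Many of the genes that fell hold matches in their annotated span to the DNA sequence that the zinc fingers of REF6 are known to bind. Their share was 78.8%, beside 61.2% of all genes tested, so a match is common in any gene. The sequence was searched as CTCTGCTC, CTCTGCTT, CTCTGTTC or CTCTGTTT on either strand, with overlapping matches each counted. The windows below show such matches within 7 of the genes with the largest falls, chosen because these genes carry the change and because the matches lie in coding exons or introns of the RefSeq annotation of TAIR10.1. All are given 5′ to 3′ on the strand of the gene, 28 bases each, with the matched bases in capitals. The XTH25 window is in a coding exon (chr5:23305666-23305693, minus strand), as are those of PAP23 (chr4:7958236-7958263, minus strand), AOX1C (chr3:10229689-10229716, minus strand) and NAC004 (chr1:435758-435785, minus strand, where the match is on the opposite strand of the gene). The windows of BPC7 (chr2:14929620-14929647, plus strand), CRK15 (chr4:12159439-12159466, minus strand) and CRK20 (chr4:12176105-12176132, plus strand) are in introns.
XTH25: tccacacttaCTCTGTTTtatggaaccc
PAP23: gtggtgatagCTCTGTTCctgcaatgag
AOX1C: ctcttgtgatCTCTGTTCaaggggtttt
NAC004: tgatggtgatGAGCAGAGgaatatcatg
BPC7: gtctttatatCTCTGTTTtatctgttct
CRK15: tttctccttcCTCTGTTTcttaccctga
CRK20: ttccaaagtaCTCTGTTTttcccctgtt

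MYB61 held 7 matches in its annotated span, 5 of them within 121 bases of an intron (chr1:3086716-3086836, plus strand, TAIR10.1), shown next with matched bases in capitals; the central run of capitals holds a pair of overlapping matches.
MYB61: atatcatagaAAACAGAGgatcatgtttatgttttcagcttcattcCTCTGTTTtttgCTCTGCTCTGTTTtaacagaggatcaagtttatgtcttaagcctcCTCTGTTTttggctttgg

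The share of genes with a match depended on where it was sought. In the 250 bases before the annotated start, 42 of 720 genes that fell held a match (5.83%), beside 14 of 246 that rose (5.69%) and 1177 of 21990 genes tested (5.35%). Among genes that fell at least 2-fold it was 24 of 275 (8.73%). Within the annotated gene span, a search chosen after the promoter values were seen, 78.8% of the genes that fell held a match, against 60.2% of those that rose and 61.2% of all genes tested. Per kilobase of span there were 0.787 matches in genes that fell, 0.348 in genes that rose and 0.44 in all genes. Median span length (2349 bases in genes that fell and 2327 in all) and GC content (38.5% and 38.8%) were close. Genes that rose had longer spans, with a median of 3127 bases, and a GC content of 38.2%. Of genes with no match in the span, 1.79% fell. The share was 2.63% with 1 match, 3.74% with 2 and 8.0% with 3 or more, while the share that rose stayed between 1.03 and 1.2%. Longer genes hold more matches, and among genes of 2000 to 3000 bases the shares that fell were 1.53, 2.67, 3.88 and 8.91%. In that range the shares that rose were 1.49, 0.783, 0.543 and 0.734%, the highest being at 0 matches. These are descriptions of sequence, with no test, and a match is not a measured binding site.

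**Figure D2:**
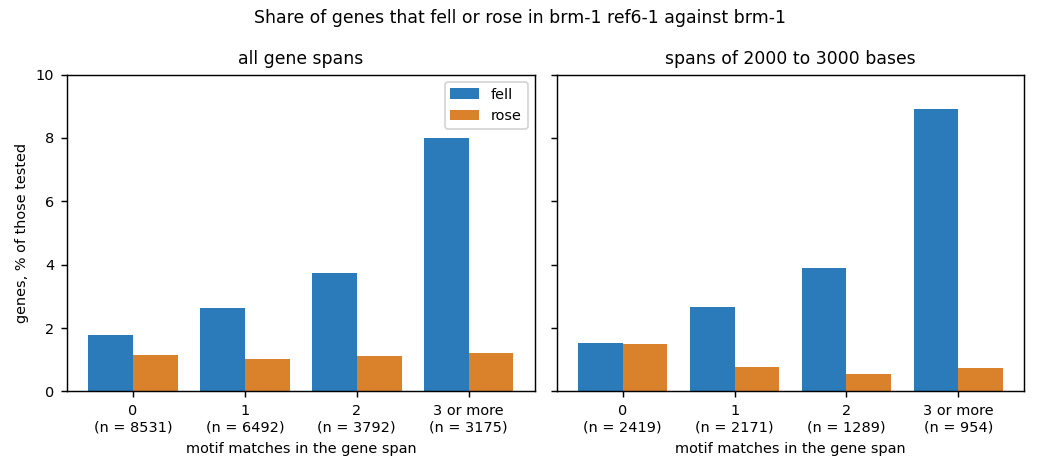
Percent of tested genes that fell (blue) or rose (orange) in brm-1 ref6-1 against brm-1, by the number of matches to the REF6 binding sequence in the annotated gene span, for all genes (left) and for spans of 2000 to 3000 bases (right). The share that fell goes from 1.79% at 0 matches to 8.0% at 3 or more, and the share that rose lies between 1.03 and 1.2% in the left panel and is highest, at 1.49%, for 0 matches in the right panel.

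Among the 10 largest rises within the same limits were WOX2, AGL19 and PI. WOX2, a homeobox gene known from patterning of the early embryo, was counted 17, 12 and 25 times in brm-1 and 87, 61 and 58 times in brm-1 ref6-1. AGL19, a MADS-box activator of flowering, was counted 71, 36 and 25 times against 142, 123 and 108 times. PI, which specifies petals and stamens, was counted 80, 50 and 56 times against 131, 148 and 148 times. None of these groups overlapped, which the choice of genes required. Their log2 changes were 2.00 (SE 0.35), 1.59 (SE 0.27) and 1.28 (SE 0.16), with edgeR adjusted p of 0.00758, 0.0068 and 0.000913, and each kept its call in all 13 alternatives. MPL1, a lipase known from aphid resistance, rose by 1.45 (SE 0.25, edgeR adjusted p = 0.00848) and LEA7, a late-embryogenesis-abundant protein, by 1.14 (SE 0.21, adjusted p = 0.00997). Rises that were less stable were those of the MADS-box gene AGL17 (1.29, edgeR adjusted p = 0.0271, lost in 4 of 13 alternatives, 0.0035 to 0.111), of PIL1, a shade-induced transcription factor (1.22, adjusted p = 0.0321, lost in 5, 0.0104 to 0.118), and of MES8, a methyl esterase (1.21, adjusted p = 0.0369, lost in 6, 0.00456 to 0.127). All of those losses came from leaving out libraries: AGL17 lost its call without brm-1 replicate 1 or 2 or brm-1 ref6-1 replicate 1 or 2, PIL1 without any library but brm-1 ref6-1 replicate 1, and MES8 without any of the 6.

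Among floral organ identity genes, 9 of 12 could be tested and the direction was mixed. SEP4 rose along with PI and SEP3, and AG and SHP1 fell, beside a background of 1.12% higher and 3.27% lower. The median of the 9 was 0.68, against 0.01 over all genes, and the 3 genes not tested (AP3, SEP2 and STK) held at most 14 counts in any library. SEP4, a co-factor of floral identity, was counted 191, 212 and 143 times in brm-1 and 354, 318 and 333 times in brm-1 ref6-1 (log2 change 0.96, SE 0.11, edgeR adjusted p = 0.000662). AG, which specifies stamens and carpels, was counted 62, 70 and 62 times against 27, 16 and 21 times (log2 change -1.52, SE 0.29, adjusted p = 0.0115). Its call was lost without brm-1 ref6-1 replicate 2 (adjusted p = 0.0568, range 0.00102 to 0.0568). SHP1, a carpel and fruit gene, fell by 0.87 on the log2 scale (SE 0.22, edgeR adjusted p = 0.0474) and lost its call in 8 of 13 alternatives (0.0393 to 0.162). In the boundary and meristem list, with 13 of 15 tested, KNAT1 rose by 0.36 (SE 0.04, edgeR adjusted p = 0.000503), with 573, 552 and 480 counts against 668, 641 and 638. KNAT1 is a homeobox gene of the shoot meristem. CUC1, which sets organ boundaries, fell. It was counted 16, 8 and 10 times in brm-1 and 0 times in all 3 brm-1 ref6-1 libraries, which makes it at least 10.7-fold lower against a floor of 3 counts over the group (edgeR adjusted p = 0.00516), a limit that covers counting error only. In ref6-1 it was counted 4, 4 and 2 times and in WT 22, 13 and 17 times. CUC1 passed the filter on low counts through libraries in which it is higher, so its fall is given as a description. Of the 13 alternatives, 11 could test it.

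Of the 29 lists of genes examined, that with the highest share of falls held the cysteine-rich receptor-like kinases (CRK genes), membrane receptors that many pathogen and stress treatments induce. In limma-voom the order differed, with 13 of 39 CRK genes and 4 of 11 morning clock genes lower. With single libraries left out, 7 to 15 of the CRK genes and 3 to 4 of the morning clock genes were lower. The lists were chosen with earlier results of these data known, so their order is a description. Of 41 CRK members, 39 could be tested (CRK1 and CRK33 held no counts). On loss of REF6 in brm-1, 18 fell and none rose (46.2% lower, beside 3.27% of all genes), the median log2 change was -0.95 against 0.01 over all genes, and 36 of 39 were negative. The summed level of the family was 1591, 1592 and 1847 CPM in brm-1 and 1208, 1189 and 1260 CPM in brm-1 ref6-1, without overlap. CRK20 was counted 95, 61 and 90 times in brm-1 and 10, 7 and 7 times in brm-1 ref6-1. CRK12 was counted 348, 308 and 403 times against 40, 42 and 88 times, and CRK15 224, 153 and 225 times against 20, 10 and 37 times. Each of these kept a wide gap between the groups. Their log2 changes were -3.26 (SE 0.37), -2.57 (SE 0.26) and -3.09 (SE 0.37), with edgeR adjusted p of 0.000535, 0.000391 and 0.0013, and all 3 calls held in all 13 alternatives, as did those of CRK5, CRK9, CRK16 and CRK24. CRK39 fell by 3.33 on the log2 scale (edgeR adjusted p = 0.0471) and lost its call in 8 of 13 alternatives (0.00176 to 0.162), each of the 6 left-out libraries among them.

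The CRK falls were spread over 2 stretches of chromosome 4 and further loci. From CRK5 to CRK24, a row of tandem copies, 11 of 20 tested members fell, and in the row CRK36, CRK37, CRK38 and CRK39 all 4 fell. None of those 4 calls held without brm-1 replicate 1 or 3 or without brm-1 ref6-1 replicate 1 or 2 (adjusted p up to 0.135, 0.0893, 0.0781 and 0.162). Some members did not pass in spite of high counts: CRK2 was counted 1104, 1025 and 1083 times in brm-1 and 857, 834 and 947 times in brm-1 ref6-1 (log2 change -0.21, edgeR adjusted p = 0.31). CRK29 was near 0, with a log2 change of -0.01 (edgeR adjusted p = 0.966). All 18 members that fell held a match to the REF6 binding sequence in their span, as did 18 of the 21 that did not pass, at 0.702 and 0.677 matches per kilobase. Within the family the matches thus did not separate the members. In WT, 15 members fell on loss of REF6 (5.63% of all genes fell there) with a median of -0.49. Of these, 9 fell in both backgrounds. In 29 of 39 the change was more negative in brm-1, but none of the 39 passed the test of the difference between backgrounds in edgeR or limma-voom, 1 did in DESeq2, and 6 had an unadjusted p under 0.05 in edgeR. The nearest to the threshold were CRK28, with a difference of -0.39 (edgeR adjusted p = 0.0516), and CRK20, with -2.20 (SE 0.48, adjusted p = 0.104). The number of CRK calls moved with the method, from 24 in DESeq2 to 13 in limma-voom and from 7 (without brm-1 ref6-1 replicate 1 or 2) to 15 with libraries left out, being 8 without brm-1 replicate 3. Reads of near-identical tandem copies could be split in counting, so values of single members are uncertain.

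**Figure D3:**
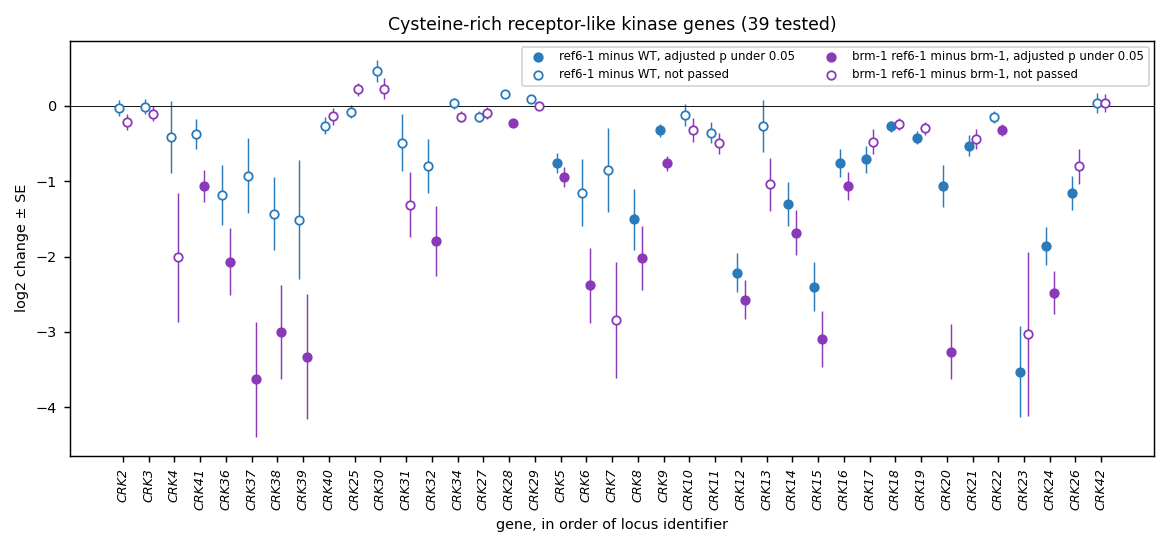
Log2 change with its standard error on loss of REF6 for the 39 CRK genes tested, in WT (blue) and in brm-1 (purple), in order of locus identifier; filled points passed an edgeR adjusted p under 0.05. Most purple points lie below 0, 18 of them filled, and CRK37 has the lowest value.

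Falls on neighbouring genes were not limited to CRK genes. Of the 720 genes that fell and could be placed on the annotation, 156 (21.7%) had a neighbouring tested gene that also fell, while 6.31% of all 21991 placed genes had such a neighbour. Among rises it was 20 of 246 (8.13%), with 2.22% for all genes. Rows of 3 or more beyond the CRK genes included NAC003, NAC004 and AT1G02260, the receptor kinases RK1 and RK2 beside the metal-chelate transporter gene YSL7, RK3 and B120 beside CRK28, ARCK1, AT4G11900 and NYE2, and 4 genes from AT5G38990 to AT5G39030. Each chromosome lost a similar share, from 2.56% of tested genes on chromosome 2 to 3.7% on chromosome 4. How many such neighbours are copies of each other or overlap was not counted, and shared reads were not separated.

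All 19 genes of salicylate defence were tested, and 3 fell (15.8%, beside 3.27%). All 19 had a negative log2 change, with a median of -1.02 against 0.01 over all genes. ICS1, the main enzyme of salicylate synthesis, was counted 1191, 768 and 890 times in brm-1 and 396, 392 and 387 times in brm-1 ref6-1. The groups were well apart, and in ref6-1 ICS1 was at 459, 555 and 671 counts. ICS1 fell by 1.19 on the log2 scale (SE 0.17, edgeR adjusted p = 0.00557) in every alternative. PBS3, which acts after ICS1 in salicylate synthesis, fell by 2.04 (SE 0.41, adjusted p = 0.0277), and WRKY54, a transcription factor of the pathway, fell by 1.42 (SE 0.27, adjusted p = 0.0181). PBS3 lost its call in 5 of 13 alternatives (adjusted p 0.000751 to 0.11), including the loss of brm-1 replicate 1 or 3 or brm-1 ref6-1 replicate 1 or 2, and WRKY54 in 3 (1.41e-07 to 0.0884), without brm-1 replicate 1 or brm-1 ref6-1 replicate 1 or 2. The pathogenesis-related gene PR1 was counted 563, 378 and 418 times against 111, 107 and 401 times, where the high value is the library labelled brm-1 ref6-1 replicate 3, and it did not pass (log2 change -1.06, edgeR adjusted p = 0.331). The summed level of the list was 792 to 995 CPM in brm-1 and 496 to 634 CPM in brm-1 ref6-1. DESeq2 called 11 of the 19 lower, and 17 had an unadjusted edgeR p under 0.05. The edgeR count was 1 without brm-1 replicate 1 or brm-1 ref6-1 replicate 2 and 5 without brm-1 replicate 2.

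In the camalexin and indole glucosinolate list, 2 of 11 genes fell (18.2%, beside 3.27%) and 1 rose (9.09%, beside 1.12%), with a median of -0.21. CYP71A13, which makes the camalexin precursor, was counted 551, 330 and 482 times in brm-1 and 123, 73 and 113 times in brm-1 ref6-1. PAD3, the last enzyme of camalexin synthesis, was counted 812, 617 and 726 times against 250, 302 and 378 times. Neither gene overlapped between the groups. They fell by 2.06 (SE 0.34, edgeR adjusted p = 0.0096) and 1.13 (SE 0.21, adjusted p = 0.0183) on the log2 scale. CYP71A13 lost its call without brm-1 ref6-1 replicate 2 (0.0502; range 3.63e-10 to 0.0502) and PAD3 in 4 of 13 alternatives (2.67e-07 to 0.0805), without brm-1 replicate 1 or 3 or brm-1 ref6-1 replicate 1 or 2. MYB34, a regulator of indole glucosinolates, rose by 0.23 (SE 0.05, edgeR adjusted p = 0.0163). MYB29, a regulator of aliphatic glucosinolates, rose by 0.55 (SE 0.11, edgeR adjusted p = 0.0128). MYB29 was the sole call among 11 genes of its list (9.09% higher, beside 1.12%). MYB34 lost its call in 5 and MYB29 in 3 of 13 alternatives (up to adjusted p of 0.0605 and 0.0629). In jasmonate and ethylene defence, ERF1, an ethylene-response factor, fell (196, 148 and 204 counts against 22, 44 and 94). Its log2 change was -1.71 (SE 0.40, edgeR adjusted p = 0.0391). ERF1 was 1 of 16 tested (6.25%, beside 3.27%). It lost its call in 7 of 13 alternatives (0.000608 to 0.135), and without the library labelled brm-1 ref6-1 replicate 3 its change was -2.37. RD29A, a cold and drought response gene, was the 1 of 19 abscisic acid and cold genes that fell in brm-1 (1281, 1146 and 1025 counts against 719, 717 and 713; log2 change -0.60, SE 0.09, edgeR adjusted p = 0.00315), beside a background of 3.27%. In WT 8 of the 19 fell, beside 5.63%, and a difference between the backgrounds was not shown for this list. PAP2, a MYB activator of anthocyanin genes, fell by 1.44 (SE 0.30, edgeR adjusted p = 0.0233). PAP2 was the sole call among 16 flavonoid genes (6.25% lower, beside 3.27%) and lost its call in 4 alternatives (8.83e-05 to 0.0939).

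Of 11 morning-phased clock genes tested, 4 fell and none rose (36.4% lower, beside 3.27%), with a median of -0.25 and 10 of 11 negative. PRR9, a pseudo-response regulator of the clock, was counted 158, 103 and 136 times in brm-1 and 69, 56 and 61 times in brm-1 ref6-1. RVE8, a MYB-type activator of evening genes, was counted 298, 243 and 234 times against 147, 159 and 130 times. Both were below the brm-1 range in all 3 libraries, and in WT PRR9 was counted 280, 222 and 205 times and RVE8 704, 542 and 536 times, above both groups. They fell by 1.01 (SE 0.16, edgeR adjusted p = 0.00392) and 0.75 (SE 0.13, adjusted p = 0.00923). The co-activators LNK2 and LNK1 fell by 0.33 (SE 0.05, edgeR adjusted p = 0.00483) and 0.25 (SE 0.06, adjusted p = 0.0397), the latter a call lost in 6 of 13 alternatives (0.0219 to 0.154). In WT, 8 of the 11 fell on loss of REF6 (5.63% of all genes fell there). CCA1, a core morning factor, was among those without a call in brm-1 (426, 377 and 385 counts against 303, 236 and 246; log2 change -0.52, edgeR adjusted p = 0.0744). Among 16 evening and photoperiod genes, CDF1, a repressor of the flowering gene CO, was the sole fall (6.25%, beside 3.27%). CDF1 was counted 271, 248 and 207 times in brm-1 and 172, 155 and 162 times in brm-1 ref6-1. Its log2 change was -0.49 (SE 0.09, edgeR adjusted p = 0.0096), and its fall in WT was larger, at -1.18.

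Of 14 brassinosteroid genes, 2 fell (14.3%, beside 3.27% of all genes), and both are enzymes of its synthesis. DWF4 was counted 458, 445 and 459 times in brm-1 and 305, 247 and 307 times in brm-1 ref6-1, and BR6OX1 39, 23 and 27 times against 7, 7 and 8 times. Neither overlapped, and they fell by 0.59 (SE 0.08, edgeR adjusted p = 0.00182) and 1.92 (SE 0.31, adjusted p = 0.00446) in all alternatives, in a list whose median was 0.07. Of 19 cytokinin genes, 3 rose (15.8%, beside 1.12%) and 1 fell (5.26%, beside 3.27%), with a median of 0.15. CKX4 fell by 0.89 (SE 0.11, edgeR adjusted p = 0.000896) and CKX3 rose by 1.64 (SE 0.37, adjusted p = 0.0275), and both encode enzymes that degrade cytokinin. The response regulators ARR8 and ARR6 rose by 0.24 and 0.53 (edgeR adjusted p of 0.0416 and 0.0497). CKX3, ARR8 and ARR6 lost their calls in 6, 7 and 9 of 13 alternatives, up to adjusted p of 0.1, 0.155 and 0.128. Of 17 gibberellin genes, 3 fell (17.6%, beside 3.27%): the DELLA repressor GAI by 0.19 (edgeR adjusted p = 0.0158), the inactivating enzyme GA2OX1 by 2.78 (adjusted p = 0.0341; 23, 36 and 23 counts against 7, 0 and 4) and the synthesis enzyme GA20OX1 by 0.97 (adjusted p = 0.0489). Those calls were lost in 3, 6 and 9 of 13 alternatives, up to adjusted p of 0.0695, 0.0995 and 0.178. Without brm-1 ref6-1 replicate 1 the log2 change of GA2OX1 was -3.63. None of 25 auxin genes passed in edgeR, DESeq2 or limma-voom, and 3 had an unadjusted edgeR p under 0.05.

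Of the phosphate and nitrate uptake genes, 17 of 20 were tested and 5 fell (29.4%, beside 3.27%), with a median of -0.31. NRT3.1, a partner of nitrate transporters, was counted 436, 391 and 380 times in brm-1 and 291, 271 and 298 times in brm-1 ref6-1 (log2 change -0.41, SE 0.07, edgeR adjusted p = 0.00705, a call held in all alternatives). The phosphate transporter gene PHT1;9 was counted 272, 153 and 158 times against 12, 39 and 62 times (log2 change -2.28, SE 0.45, adjusted p = 0.0214). Its call was lost without brm-1 replicate 1 or 3 or brm-1 ref6-1 replicate 2 (adjusted p 0.000631 to 0.0767). The transporters PHT1;7, PHT1;1 and PHT1;4 fell by 2.77, 0.31 and 0.25 (edgeR adjusted p of 0.0421, 0.0449 and 0.0489), and these lost their calls in 8, 6 and 8 alternatives, up to adjusted p of 0.129, 0.154 and 0.163. In the list, 1 member passed without brm-1 replicate 1 or 3 and 2 without brm-1 ref6-1 replicate 1 or 2. PHT1 genes are close copies, and their reads may be split.

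Of 19 of 21 tested genes of H3K27 demethylases and Polycomb proteins, 2 rose (10.5%, beside 1.12%) and 1, REF6 itself, fell (5.26%, beside 3.27%), with a median of 0.03. EMF1, a Polycomb-associated protein, rose by 0.19 (SE 0.04, edgeR adjusted p = 0.0167) and JMJ30, another H3K27 demethylase, by 0.22 (SE 0.05, adjusted p = 0.0391). They lost their calls in 2 and 6 of 13 alternatives, up to adjusted p of 0.0733 and 0.146. ELF6, the closest relative of REF6, had a log2 change of -0.06 (edgeR adjusted p = 0.451). None of 12 SWI/SNF subunit genes passed in edgeR, DESeq2 or limma-voom, and none had an unadjusted edgeR p under 0.05. Further lists held 1 called gene each or none. NYE2 was the 1 of 17 senescence genes that fell (5.88%, beside 3.27% of all genes), and in WT 4 fell (beside 5.63%). XTH25 was the 1 of 24 xyloglucan enzyme and expansin genes that fell (4.17%, beside 3.27%). PIL1 was the 1 of 11 light signalling genes that rose (9.09%, beside 1.12%). None of 8 TCP factors of leaf growth passed in edgeR, DESeq2 or limma-voom, with 1 at an unadjusted edgeR p under 0.05.

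Seed storage genes had high values in brm-1 ref6-1 that varied widely among libraries. In the seed maturation list 9 of 21 were tested, and none passed in edgeR or DESeq2, while 2 did in limma-voom and 6 were higher at an unadjusted edgeR p under 0.05. The median log2 change of the 9 was 1.37, against 0.01 over all genes, and 1 of the 9 was negative. Their list summed to 37.4 to 80.8 CPM in brm-1 and 84.1 to 167.3 CPM in brm-1 ref6-1, without overlap. The cruciferin gene CRC (AT4G28520) was counted 12, 134 and 6 times in brm-1 and 123, 475 and 123 times in brm-1 ref6-1, with 0 in all WT libraries and 2, 0 and 3 in ref6-1 (log2 change 2.34, SE 1.01, edgeR adjusted p = 0.266). CRA1, another cruciferin, was counted 70, 176 and 18 times against 160, 318 and 159 times. In both genes replicate 2 was the highest library of each group, and the groups overlapped. Without brm-1 replicate 2, 4 members of the list passed as higher, and 5 did with the replicate number as a block. CRC and CRA1 passed the filter on low counts through the libraries in which they are high. In the iron deficiency list, none of 12 tested genes passed in edgeR or limma-voom and 1 did in DESeq2, with 2 at an unadjusted edgeR p under 0.05. The transcription factor gene BHLH100 was counted 5, 25 and 2 times in brm-1 and 207, 21 and 11 times in brm-1 ref6-1, and BHLH38 6, 17 and 2 times against 145, 15 and 8 times. The high values in both were those of brm-1 ref6-1 replicate 1 alone.

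The same loss of REF6 in WT changed 1756 genes (7.95% of those tested), 1242 lower (5.63%) and 514 higher (2.33%). Without WT replicate 1 or ref6-1 replicates 1 or 2, 862, 1008 and 934 passed. The 2 comparisons share no library, so their values can be set side by side. Both come from 1 model with a shared estimate of the spread, so their calls are not independent. With only the groups compared in the fit, 631 of the 968 calls in brm-1 were kept (65.2%). Lower in both were 382 genes, which are 53% of the falls in brm-1 and 30.8% of those in WT. Their median log2 changes were -0.86 in brm-1 and -0.81 in WT. Without the library labelled brm-1 ref6-1 replicate 3 there were 364. The count was 194 and 252 without brm-1 ref6-1 replicates 2 and 1, 228 and 225 without brm-1 replicates 1 and 3, and 237 without ref6-1 replicate 2. Higher in both were 60 genes, 24.3% of the rises in brm-1 and 11.7% of those in WT, with medians of 0.36 and 0.43. Opposite calls were found for 6 genes. The 1242 falls in WT had a negative change in brm-1 for 1105 genes (89%, where 47.9% of all genes were negative), with a median of -0.30 in brm-1. In WT, where they were chosen, their median was -0.58. In reverse, 681 of the 721 falls in brm-1 (94.5%) were negative in WT, with a median of -0.50 against -0.75. The 514 rises in WT had a median of 0.09 in brm-1 and of 0.34 in WT, where they were chosen. Across the 22076 genes, which are not independent, Pearson's r of the changes was 0.569 and Spearman's rho 0.414. Falls called in both included BPC7, NAC004 and MYB61. BPC7 was counted 64, 49 and 60 times in WT and 1, 0 and 0 times in ref6-1, NAC004 102, 127 and 88 times against 9, 10 and 10 times, and MYB61 182, 100 and 87 times against 32, 19 and 16 times. Rises called in both included SEP4, MES8, PIL1, NRPE3B, a polymerase subunit gene, and CYP71A25, a cytochrome P450 gene counted 115, 134 and 105 times in brm-1 and 217, 233 and 240 times in brm-1 ref6-1. CYP71A25 rose by 1.04 in brm-1 (SE 0.11, edgeR adjusted p = 0.000391) and by 0.90 in WT. NRPE3B rose by 1.1 in brm-1 (edgeR adjusted p = 0.0397), a call lost in 6 of 13 alternatives (0.00681 to 0.128).

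**Figure D4:**
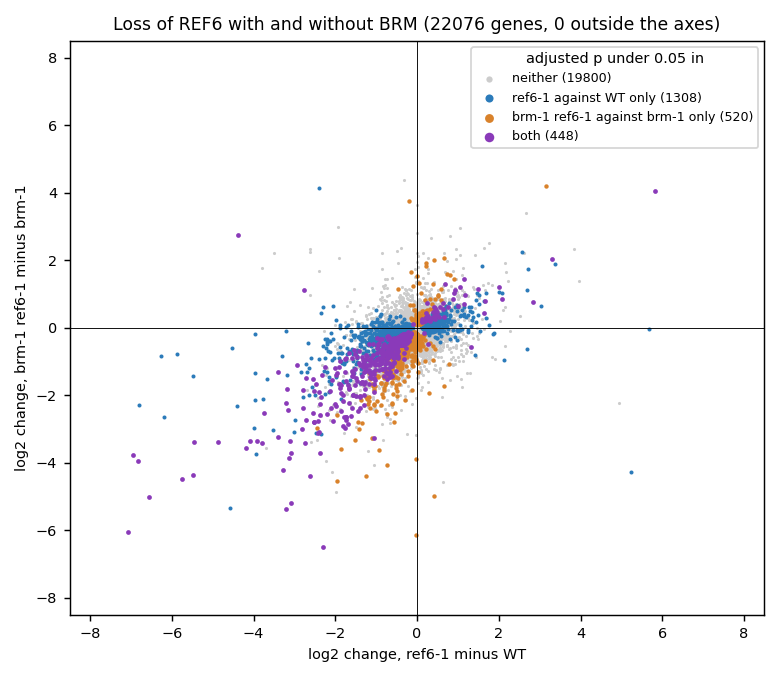
Log2 change of each of the 22076 tested genes on loss of REF6 in WT (horizontal axis) and in brm-1 (vertical axis), coloured by the comparison in which it passed an edgeR adjusted p under 0.05. Most genes called in both (382 lower and 60 higher) have the same sign on both axes, and 6 called genes have opposite signs.

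A direct test of whether the effect of REF6 differed between the backgrounds passed for 54 genes (0.245% of those tested), 41 with a higher (0.186%) and 13 with a lower (0.0589%) value in brm-1. Of these, 35 were called in WT and not in brm-1, 30 of them as falls, 12 were called in both and 7 in brm-1 and not in WT. In 45 of the 54 the change was larger in WT. The count of 54 was 55 without the library labelled brm-1 ref6-1 replicate 3. It was 12 without ref6-1 replicate 2, 15 without brm-1 ref6-1 replicate 2, 17 and 23 without WT replicates 1 and 2, and 21 without brm-1 replicate 2 or 3. Of the 336 falls in brm-1 that had no call in WT, 3 passed this test, and of the 184 such rises 4 did, so a call in brm-1 without a call in WT is mostly not shown to be a difference.

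FLC, the central repressor of flowering, and MAF5 had the smallest p-values of the difference. FLC was counted 41, 20 and 28 times in WT, 212, 210 and 199 times in ref6-1, 256, 251 and 231 times in brm-1 and 378, 403 and 399 times in brm-1 ref6-1. Both single mutants lay far above WT, and brm-1 ref6-1 was the highest, without overlap. FLC rose by 0.76 in brm-1 (SE 0.10, edgeR adjusted p = 0.00152) and by 2.83 in WT, a difference of -2.07 (SE 0.18, adjusted p = 0.00043). MAF5, a relative of FLC and another repressor of flowering, was counted 27, 30 and 27 times in WT, 162, 205 and 165 times in ref6-1, 119, 110 and 104 times in brm-1 and 74, 45 and 84 times in brm-1 ref6-1. MAF5 thus was highest in ref6-1, and the combined mutant lay below either single mutant. Its log2 change was -0.64 in brm-1 (SE 0.18, edgeR adjusted p = 0.0735, 0.0495 to 0.194 over its alternatives) and 2.69 in WT, a difference of -3.33 (SE 0.27, adjusted p = 0.00043). The other flowering repressors gave no call in brm-1, so FLC was 1 of 17 (5.88% higher, beside 1.12% of all genes). Among 21 of 22 flowering promoters tested, none passed in edgeR, DESeq2 or limma-voom, with 6 at an unadjusted edgeR p under 0.05. FT, the mobile flowering signal, was counted 102, 112 and 112 times in brm-1 and 157, 118 and 158 times in brm-1 ref6-1 (log2 change 0.48, edgeR adjusted p = 0.0721), where in WT its change was 1.29 and passed. SEP3, a floral co-factor, was counted 503, 508 and 524 times in brm-1 and 672, 689 and 597 times in brm-1 ref6-1, beside 74, 90 and 103 times in WT and 275, 281 and 259 times in ref6-1. SEP3 rose by 0.43 in brm-1 (SE 0.10, edgeR adjusted p = 0.0275) and by 1.64 in WT, a difference of -1.21 (SE 0.17, adjusted p = 0.0148). Its call in brm-1 was lost without brm-1 replicate 1 or 2 or brm-1 ref6-1 replicate 1 or 2 (0.0105 to 0.118).

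Opposite directions were seen at MRD1 and HEI10, which overlap on opposite strands of chromosome 1 (MRD1 at 19963047 to 19964712 and HEI10 at 19963267 to 19966952, TAIR10.1). Without a known strand setting their reads cannot be told apart. HEI10 is known as a meiotic crossover protein. MRD1 was counted 594, 537 and 564 times in WT, 37, 20 and 22 times in ref6-1, 24, 16 and 16 times in brm-1 and 43, 161 and 154 times in brm-1 ref6-1. HEI10 was counted 794, 686 and 736 times in WT, 129, 94 and 93 times in ref6-1, 113, 90 and 81 times in brm-1 and 110, 243 and 228 times in brm-1 ref6-1. Both were low in each single mutant and higher in brm-1 ref6-1 replicates 2 and 3, while replicate 1 was near brm-1 in HEI10 and above it in MRD1 (4.14 CPM against 1.46 to 2.03 CPM). The changes in brm-1 were 2.75 (SE 0.47, edgeR adjusted p = 0.0112) and 1.11 (SE 0.25, adjusted p = 0.035), and in WT they were -4.39 and -2.78. MRD1 lost its call in brm-1 without brm-1 replicate 3 (adjusted p = 0.0519) and in limma-voom (range 1.64e-06 to 0.0684), and HEI10 in 8 of 13 alternatives (0.000163 to 0.118). The differences between backgrounds were 7.14 (SE 0.62, adjusted p = 0.00117) and 3.89 (SE 0.34, adjusted p = 0.00114) and passed in all 18 alternatives. GH9B13, a glycosyl hydrolase of the cell wall, was counted 641, 603 and 527 times in brm-1, 376, 387 and 422 times in brm-1 ref6-1, 771, 813 and 866 times in WT and 1000, 985 and 908 times in ref6-1. It fell by 0.50 in brm-1 (SE 0.07, edgeR adjusted p = 0.00152) and rose by 0.27 in WT, a difference of -0.77 (SE 0.09, adjusted p = 0.003).

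**Figure D5:**
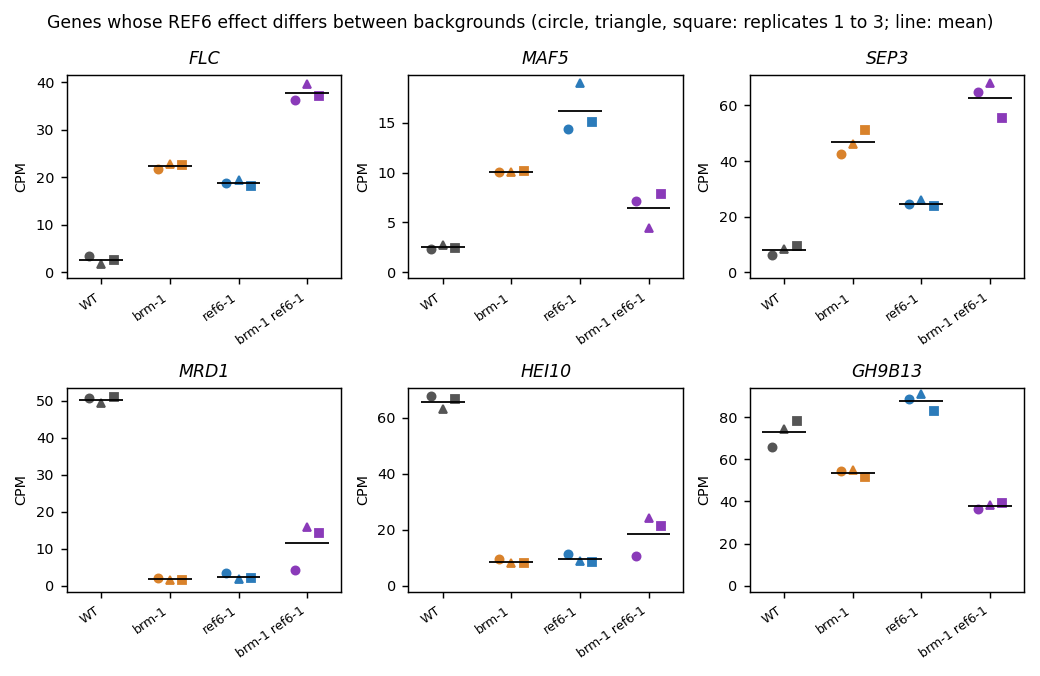
Level in CPM in each of the 12 libraries of 6 genes whose change on loss of REF6 differed between brm-1 and WT; circles, triangles and squares are replicates 1, 2 and 3 and lines are means of 3 libraries. FLC is highest in brm-1 ref6-1 and MAF5 is highest in ref6-1. MRD1 and HEI10 are high in WT and low in both single mutants, and their brm-1 ref6-1 means lie between.

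A few loci without a gene symbol, chosen after their values were seen, showed how the 4 genotypes can combine. AT1G27565 was counted 3, 0 and 0 times in WT, 1, 0 and 3 times in ref6-1, 74, 43 and 63 times in brm-1 and 4, 0 and 1 times in brm-1 ref6-1. Its counts were thus high in brm-1 and at most 4 elsewhere. It passed the filter on low counts through brm-1 and was chosen for this pattern, so it is given as a description. AT3G58480 was counted 5, 2 and 4 times in brm-1 and 74, 53 and 50 times in brm-1 ref6-1, with 0, 2 and 1 counts in WT and 78, 69 and 40 in ref6-1. It was high in both genotypes with ref6-1 and near 0 in the others, and this too is a description of a locus chosen for its pattern. AT1G22350 was counted 276, 238 and 251 times in WT and 244, 267 and 266 times in ref6-1, but 49, 45 and 36 times in brm-1 and 101, 99 and 105 times in brm-1 ref6-1. It rose by 1.31 in brm-1 (SE 0.11, edgeR adjusted p = 6.38e-05) with a change of 0.05 in WT, a difference of 1.25 (SE 0.13, adjusted p = 0.00164). AT5G24240 was at 72, 84 and 65 counts in brm-1 and 31, 51 and 56 in brm-1 ref6-1, a change of -0.60 that did not pass (SE 0.26, edgeR adjusted p = 0.237), where in WT the change was -4.54. The difference between the backgrounds was 3.94 (SE 0.35, adjusted p = 0.00106). AT1G13650 was counted 491, 568 and 563 times in brm-1 and 380, 322 and 339 times in brm-1 ref6-1, and 84, 91 and 114 times in WT against 237, 226 and 246 times in ref6-1. It fell by 0.57 in brm-1 (SE 0.11, edgeR adjusted p = 0.0138) and rose by 1.32 in WT, a difference of -1.89 (SE 0.18, adjusted p = 0.00106).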

How the data were processed

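RNA-seq of 14-day-old seedlings gave 3 libraries for each of 4 genotypes. The deposited table lists raw counts for each locus. Per the submitters' processing notes, reads had been aligned by TopHat2 and the build was TAIR10. Version of the aligner, counting tool and strand setting: not given in the sources used here. Totals were 10119148 to 11860892 counts, and 28932 of 29420 loci matched the TAIR10.1 annotation.

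A single edgeR model (version 4.0.16, under R 4.3.3) covered all 12 libraries, with 1 mean per genotype, TMM normalization, genes kept by filterByExpr, and two-sided quasi-likelihood F tests with robust dispersion. Benjamini-Hochberg adjustment ran over all 22076 tested genes, with 0.05 as the threshold for a call. Log2 changes are fitted values, and standard errors come from the F statistic. CPM uses TMM-scaled library sizes. All n are 3 per group. The contrasts were brm-1 ref6-1 minus brm-1, ref6-1 minus WT, and their difference. The scripts were tested on simulated data.

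The comparison and the 29 gene lists were chosen with earlier results of these data known, and 10 list entries were left out because the annotation does not pair name and locus. Named genes are BRM and REF6, the 10 largest rises and falls that have a symbol, non-overlapping groups and a mean of 2 CPM or more, called members of each list, the clearest differences between backgrounds and the largest changes in both backgrounds. Other genes were named after their values were seen. The alternatives tried were limma-voom (limma 3.58.1), DESeq2 1.42.0, edgeR with DESeq2's size factors, omission of the count filter, a filter of 1 CPM in 6 or more libraries, fits of only the groups compared, a replicate block, and leaving out single libraries. The motif search over gene spans and the range of span lengths were chosen after seeing the data. Sequences are RefSeq's TAIR10.1. Each result counts genes of whole seedlings, and depth limits genes with few counts.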

Additional observations from a re-analysis of the deposited data

Results flagged for a closer look

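These genes are listed because their change on loss of REF6 differed between the brm-1 and WT backgrounds in the edgeR test of the difference (log2 change in brm-1 minus that in WT). FLC differed by -2.07 (adjusted p = 0.00043), MAF5 by -3.33 (0.00043) and SEP3 by -1.21 (0.0148). MRD1 and HEI10, which overlap, differed by 7.14 (0.00117) and 3.89 (0.00114). GH9B13 differed by -0.77 (0.003), CDF1 by 0.69 (0.043) and LEA7 by 1.62 (0.0438), LEA7 having a change of 1.14 in brm-1 and -0.48 in WT. Of the loci named after their values were seen, AT5G24240 differed by 3.94 (0.00106), AT1G22350 by 1.25 (0.00164) and AT1G13650 by -1.89 (0.00106). In all of them 3 libraries per genotype entered the test, and no cause was tested.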

How the results depend on the processing

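In brm-1, the counts of 968 called, 247 higher and 721 lower ran over 364 to 902, 70 to 233 and 294 to 669 with single libraries left out. With only the groups compared, 134 were higher, and 83.3% of the 803 calls were lower, as were 83.8% of the 1018 calls in DESeq2 (74.5% in the reported fit). In WT, leaving out libraries gave 862 to 1763 calls (225 to 484 higher, 637 to 1279 lower). The 54 differences became 95 in DESeq2 (63 higher, 32 lower) and 12 to 55 with libraries left out (7 to 40 higher, 5 to 15 lower). Genes lower in both backgrounds were then 194 to 445, and genes higher in both 28 to 56. The cause was not tested, beyond the smaller number of samples. None of the counts or of the named genes recomputed under the alternatives changed direction with a call. The loci without a symbol and the differences of SEP3, CDF1 and LEA7 were not recomputed. BRM, which was not called, had a log2 change of 1.74 with the library labelled brm-1 ref6-1 replicate 3 and -0.13 without it. Whether replicate numbers pair the libraries was not settled. Deviations of same-numbered libraries correlated at -0.189 to 0.291 and those of other pairs at -0.305 to 0.256. Between ref6-1 and brm-1 ref6-1, replicates 1, 2 and 3 gave 0.239, -0.035 and 0.291. Between brm-1 and brm-1 ref6-1 they gave -0.121, -0.022 and 0.146. With the number as a block, 1053 genes passed in brm-1 (281 higher, 772 lower), 2023 in WT and 72 in the difference, with 424 lower and 70 higher in both backgrounds. Genes with few counts, such as CUC1, are limited by depth.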
